A study of Mus musculus with 5 samples.

Results

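Neuropeptide Y (Npy) and its receptors Npy1r, Npy2r and Npy5r were examined in the ribosome-bound RNA of Drd2 neurons of the central amygdala (CeA). The 4 genes were found by their names among the 15093 genes of the deposited table, and each has 1 row there. Npy5r brought the family into view because its RNA was present in fear conditioned libraries and nearly absent in controls, so its values are given as a description without a test. RNA was obtained by translating ribosome affinity purification (TRAP), in which ribosomes carrying an eGFP-tagged L10a subunit are pulled down with their mRNA. All animals were adult Drd2-TRAP mice, a cross of a Drd2-Cre BAC transgenic line with a Rosa26 line that expresses the tag once Cre has removed a stop cassette, so the tag marks any cell in which Drd2-Cre has acted. Of the 5 libraries, 3 (replicates 2, 3 and 4) came from mice that were fear conditioned and 2 from home cage controls (replicates 6 and 7), and each was a pool of bilateral punches from 3 animals taken 2 h after the session. The labels name fear extinction as that session, whereas the paper describes fear conditioning, and the paper's results describe controls that heard the tone without shock.

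Npy is a short amidated peptide released by many GABAergic neurons, and in the amygdala it is known for reducing anxiety and fear. Its receptors are coupled to inhibitory G proteins, which lower cyclic AMP and open potassium channels. Y1 and Y5 receptors (Npy1r and Npy5r) are mostly found on the receiving neuron, and Y2 (Npy2r) is known as a presynaptic receptor that limits transmitter release. Npy1r and Npy5r are neighbours in the genome and are read in opposite directions from starts that face away from each other.

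The libraries held between 19605318 and 27937520 reads on genes, and 3 reads, taken as the floor of detection for counting error alone, correspond to between 0.1002 and 0.158 counts per 1000000 (CPM). The control libraries stood apart from each other and from the rest, with 976 and 2681 genes listed at 0 against 159 to 349 in the fear conditioned libraries. Drd2 was present in each library, at 326, 375 and 555 CPM after fear conditioning, against 128 and 262 CPM in controls. The central amygdala list, which includes Drd2 and Sst, overlapped between the groups, at 588 to 776 CPM and at 488 and 874 CPM. The list of striatal Drd2 neurons summed to 15098 to 17162 CPM after fear conditioning and to 6463 and 9345 CPM in controls. Most of these sums was Penk, at 13564.5 to 16076.2 CPM after fear conditioning and at 6098 and 8606 CPM in controls. Some marker lists of other cells moved with the groups. The choroid plexus list summed to between 58.6 and 111 CPM after fear conditioning and to 1011 and 1418 CPM in controls, where Ttr alone gave 913 and 1320 CPM. Clic6, which overlapped between the groups, made up most of the fear conditioned sums, at 50.9, 77.2 and 56.2 CPM. The astrocyte list summed to between 844 and 1046 CPM and to 2202 and 2735 CPM. The oligodendrocyte list summed to between 1258 and 2669 CPM and to 2734 and 5320 CPM. The endothelial and mural list summed to between 25.3 and 64.1 CPM and to 119 and 133 CPM, but its genes were mixed. Of its 7 genes tested in limma below, 4 lay below both controls in every fear conditioned library, as did 16.1% of all genes tested. Cldn5 lay above both, as did 20.2% of all genes tested, and 2 overlapped. Tek, at 0 CPM in both controls, was too low to be tested. The striatal Drd1a list, higher after fear conditioning, summed to between 246 and 454 CPM and to 124 and 237 CPM. The pallial list overlapped between the groups, at 381 to 611 CPM and at 526 and 793 CPM. Xist, the RNA that coats the silenced X chromosome in female cells, had 4 reads or fewer after fear conditioning, against 666 and 1774 reads in controls. Neither Xist nor Ttr overlapped between the groups. A difference in the sex of the animals or in the tissue punched cannot be told apart from conditioning here. The part of these differences in the results below was not tested.

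The promoter windows of the 4 genes are shown because Npy5r and Npy1r lie side by side, and RNA of the first was nearly absent in controls where RNA of the second was detected. Each window runs from 250 bases before to 50 bases after the start in RefSeq (build GRCm38.p6), 5′ to 3′ in the direction of the gene, with matches to the E-box CACGTG and the GC box GGGCGG in capitals. The windows are chr8:66688045-66688344 on the minus strand for Npy5r, chr8:66697172-66697471 on the plus strand for Npy1r, chr3:82548036-82548335 on the minus strand for Npy2r and chr6:49822460-49822759 on the plus strand for Npy.
Npy5r: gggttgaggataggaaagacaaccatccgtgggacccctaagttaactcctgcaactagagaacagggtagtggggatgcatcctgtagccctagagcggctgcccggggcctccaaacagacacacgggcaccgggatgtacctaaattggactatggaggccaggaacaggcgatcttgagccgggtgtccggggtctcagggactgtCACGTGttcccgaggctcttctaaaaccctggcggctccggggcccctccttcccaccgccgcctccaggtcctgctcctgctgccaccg
Npy1r: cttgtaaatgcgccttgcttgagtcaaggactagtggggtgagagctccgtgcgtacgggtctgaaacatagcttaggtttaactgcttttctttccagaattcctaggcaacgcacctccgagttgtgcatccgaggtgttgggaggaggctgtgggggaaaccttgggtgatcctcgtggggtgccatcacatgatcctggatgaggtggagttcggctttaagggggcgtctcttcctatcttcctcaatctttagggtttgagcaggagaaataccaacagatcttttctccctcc
Npy2r: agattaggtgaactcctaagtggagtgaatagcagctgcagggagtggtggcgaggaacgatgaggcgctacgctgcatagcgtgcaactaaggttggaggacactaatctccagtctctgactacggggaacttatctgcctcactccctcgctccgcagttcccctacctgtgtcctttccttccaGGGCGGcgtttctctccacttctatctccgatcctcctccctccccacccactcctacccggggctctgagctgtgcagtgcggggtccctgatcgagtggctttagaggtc
Npy: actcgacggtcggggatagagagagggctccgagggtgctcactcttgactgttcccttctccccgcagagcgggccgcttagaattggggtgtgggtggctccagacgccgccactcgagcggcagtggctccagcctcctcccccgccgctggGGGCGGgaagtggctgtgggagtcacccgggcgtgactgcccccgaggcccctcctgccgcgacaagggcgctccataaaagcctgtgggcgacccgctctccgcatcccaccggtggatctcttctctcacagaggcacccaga
The windows differed in composition. The share of G and C was 68.0% for Npy, 61.7% for Npy5r, 57.7% for Npy2r and 51.7% for Npy1r, where the median of all 32851 windows was 52.7%. None of the 4 windows held the cyclic AMP response element TGACGTCA or its core TGACG on either strand, letters present in 1.79% and 20.8% of all windows. The E-box CACGTG occurred once, at position 211 of the Npy5r window, and is found in 7.15% of all windows. The GC box GGGCGG or its reverse complement occurred once in the Npy window, at position 156, and once in the Npy2r window, at position 189, and is found in 35.7% of all windows. The E-box and the GC box were searched only after the windows had been read. A match describes the letters of the window and does not show that a factor binds there.

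Npy5r RNA was found after fear conditioning and almost not at all in controls. Npy5r (ENSMUSG00000044014), the Y5 receptor, had 106, 135 and 211 reads in fear conditioned replicates 2, 3 and 4, which correspond to 5.03, 5.62 and 10.5 CPM. In control replicates 6 and 7 it had 1 read and 0 reads. The groups were far apart, and replicate 4 was the highest of the fear conditioned libraries. The mean was 7.04 ± 2.99 CPM after fear conditioning (SD, n = 3), which is 54.5-fold higher than a floor of 3 reads in each control library. On the log2(CPM + 1) scale, which understates the change of low genes, the difference was 2.92. In control replicate 6 the exact 95% Poisson interval of the single read was 0.0253 to 5.57 reads, for counting error only. In control replicate 7 it was 0 to 3.69 reads, for counting error only. Both upper ends lie above the floor of 3 reads, so 54.5-fold is not a lower bound. In these bulk pull-downs fewer cells with Npy5r RNA and less Npy5r RNA per cell cannot be told apart.

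The share of genes with so few reads in controls is given as background, and nothing is read from it about Npy5r, which was chosen by these values. Of 1765 genes with a fear conditioned mean within 1.5 times that of Npy5r, 27% had 3 reads or fewer in control replicate 7, and 3.91% had 3 reads or fewer in control replicate 6. Both control libraries were at 3 reads or fewer for 34 of these genes (1.93%), Npy5r among them, and for 4.6% of all genes listed. The neighbouring gene Npy1r and the related Npy2r were detected in both controls at more than 200 reads.

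Npy5r was also set beside Drd2, whose log2 difference was 1.15 (limma, adjusted p = 0.239), as a description. Per 1000 reads of Drd2 there were 15.4, 15.0 and 18.9 reads of Npy5r in replicates 2, 3 and 4 of the fear conditioned group, but 0.260 and 0 in the control replicates. The ratio varied little among the fear conditioned libraries, in which both genes were highest in replicate 4. Control replicate 7 held 4962 reads of Drd2 and none of Npy5r. Set against Adora2a, an adenosine receptor of the same neurons, Npy5r had 11.1, 7.29 and 13.5 reads per 1000 reads after fear conditioning, against 0.319 and 0 in controls.

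Npy1r RNA was present in every library, and its levels overlapped between the groups. Npy1r (ENSMUSG00000036437), the Y1 receptor, had 6.92, 6.95 and 10.03 CPM after fear conditioning, against 6.88 and 11.8 CPM in controls, from 146 to 223 reads a library. The groups overlapped, with control replicate 6 the lowest and control replicate 7 the highest of all libraries. Fear conditioned libraries averaged 7.97 ± 1.78 CPM (SD, n = 3) and controls 9.32 ± 3.45 CPM (SD, n = 2). Limma put the log2 difference at -0.18 with a standard error of 0.54 (95% interval -1.49 to 1.13, Benjamini-Hochberg adjusted p = 0.885 over all genes tested), and it turned to 0.07 with upper quartile scaling. A two-sided exact permutation test gave p = 0.7, and with 3 and 2 libraries it cannot go below 0.1. The interval includes changes in either direction. Per 1000 reads of Drd2, which was itself at a lower level in both controls, there were 21.2, 18.6 and 18.1 reads of Npy1r after fear conditioning, against 53.6 and 44.9 in controls.

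Npy2r RNA was lower after fear conditioning in each library, without passing the test. Npy2r (ENSMUSG00000028004), the Y2 receptor, had 8.58, 9.20 and 7.60 CPM after fear conditioning, against 46.4 and 17.2 CPM in controls, from 153 to 221 reads and from 1388 and 327 reads. All fear conditioned libraries lay below both controls, as they did for 16.1% of all genes tested, and the controls were themselves 2.69-fold apart, whereas the fear conditioned libraries were within 1.21-fold of each other. Fear conditioned libraries averaged 8.46 ± 0.810 CPM (SD, n = 3) and controls 31.8 ± 20.6 CPM (SD, n = 2), which is 3.76-fold higher. Limma put the log2 difference at -1.64 with a standard error of 0.56 (95% interval -2.99 to -0.29, unadjusted p = 0.0249, Benjamini-Hochberg adjusted p = 0.244). The exact permutation test gave p = 0.1, two-sided, the smallest possible. DESeq2 on reads recovered from the table called Npy2r (log2 fold change -1.92, adjusted p = 0.0213), as it did 8.94% of the 14489 genes it tested, 4.42% in the same direction. Leaving out control replicate 6 gave a log2 difference of -0.95 and leaving out control replicate 7 gave -2.33. Npy2r was called in both of these fits, along with 58.7% and 24.8% of all genes tested.

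Npy itself, the ligand, was spread widely in both groups. Npy (ENSMUSG00000029819) had 53.2, 28.5 and 31.0 CPM after fear conditioning, against 49.6 and 119 CPM in controls. The groups overlapped, since fear conditioned replicate 2 lay above control replicate 6, and control replicate 7 was the highest library. Fear conditioned libraries averaged 37.6 ± 13.6 CPM (SD, n = 3) and controls 84.5 ± 49.4 CPM (SD, n = 2). Limma put the log2 difference at -1.07 with a standard error of 0.48 (95% interval -2.23 to 0.09, Benjamini-Hochberg adjusted p = 0.326), and the exact permutation test gave p = 0.3, two-sided. Without control replicate 7 the difference shrank to -0.45 on the log2 scale, and without control replicate 6 it was -1.70, where Npy passed the test with the 58.7% of genes given above. A mean level of at least 1 CPM, the filter of the limma fit, was met by all 4 genes, and Npy5r met it through the fear conditioned group alone.

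In the limma fit 0 of 13560 genes (0%) were called, which required an adjusted p under 0.05 and a log2 difference over 0.5 in size. An unadjusted p under 0.05 was found for 2280 genes (16.8%), higher after fear conditioning for 9.49% of all genes and lower, as for Npy2r, for 7.32%. All fear conditioned libraries lay above both controls for 20.2% of the genes and below both for 16.1%. Groups that do not overlap were thus frequent in these libraries, at 36.4% of all genes. Beside Npy5r, 1 of the 3 other members, Npy2r, was among them.

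**Figure D1:**
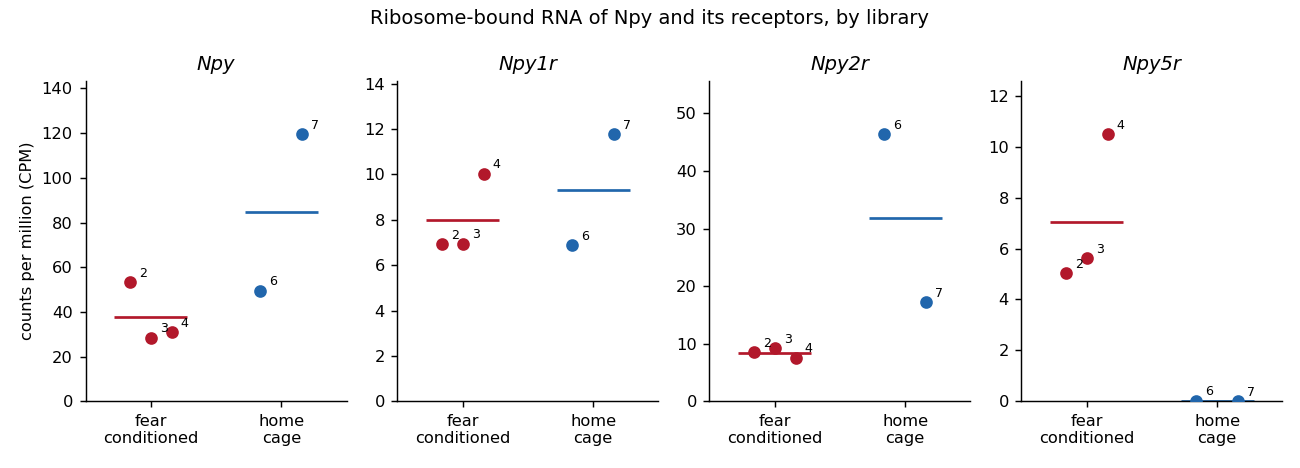
Level of each gene in CPM (vertical axis, from 0) in the 3 fear conditioned and 2 home cage libraries, with 1 point per library labelled by its replicate number and a line at the group mean. Npy5r is at or near 0 in both home cage libraries, Npy2r is lowest in the fear conditioned libraries, and the groups overlap for Npy and Npy1r.

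Levels of different genes were compared after division by the deposited gene length, as CPM per kilobase. Npy was the highest member in every library. It had 94.7, 50.7 and 55.2 CPM per kilobase after fear conditioning, against 88.2 and 212 in controls, higher than 89.8% to 97.8% of all genes in its library. The receptors were far lower, with a mean log2 ratio of Npy to Npy5r of 4.48 ± 0.92 after fear conditioning (SD, n = 3 libraries).

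Among the receptors, Npy5r and Npy1r could not be put in order after fear conditioning. Npy5r had 2.17, 2.43 and 4.53 CPM per kilobase in replicates 2, 3 and 4, and Npy1r had 2.30, 2.32 and 3.34. Their ranges overlapped, and the mean log2 ratio of Npy5r to Npy1r was 0.14 ± 0.27 (SD, n = 3), turning to -0.24 without division by length. Per kilobase, Npy2r was the lowest receptor there, at 1.93, 2.07 and 1.71 CPM per kilobase, below every value of the other two. The mean log2 ratio of Npy1r to Npy2r was 0.46 ± 0.44 (SD, n = 3), about the size of its spread, and without division by length it turned to -0.10. That of Npy5r to Npy2r was 0.60 ± 0.70 (SD, n = 3), within its spread, and turned to -0.34. In CPM Npy2r was the highest receptor in replicates 2 and 3.

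The order was different in controls. Npy2r had 10.4 and 3.88 CPM per kilobase in control replicates 6 and 7, where Npy1r had 2.29 and 3.91 and Npy5r 0.0144 and 0. In control replicate 7 Npy2r and Npy1r were level, and in control replicate 6 Npy2r was well above Npy1r, so the mean log2 ratio of 1.09 ± 1.56 (SD, n = 2) did not separate them. The place of each receptor among all listed genes moved accordingly. Npy5r stood above between 38.2% and 51.5% of the listed genes after fear conditioning and above 7.17% and 0% in controls. Npy2r stood above between 33.3% and 37.6% after fear conditioning and above 66.0% and 48.5% in controls, and Npy1r above between 33.7% and 48.6% over all libraries.

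As a share of the 3 receptors' summed level per kilobase, Npy5r made up 33.9%, 35.7% and 47.3% after fear conditioning (replicates 2, 3 and 4), and 0.113% and 0% in the controls (replicates 6 and 7). Npy2r made up 30.1%, 30.4% and 17.8% after fear conditioning, against 81.9% and 49.8% in controls. Npy1r made up 35.95%, 34.0% and 34.9% after fear conditioning, nearly the same share in each library, but 18.0% and 50.2% in controls. The summed level itself overlapped between the groups, at 6.41, 6.82 and 9.58 CPM per kilobase after fear conditioning, against 12.7 and 7.80 in controls. After fear conditioning the receptor RNA was divided among 3 receptors, and in controls between Npy2r and Npy1r. This follows in part from the choice of Npy5r by these values, since its share lowers those of the other receptors.

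**Figure D2:**
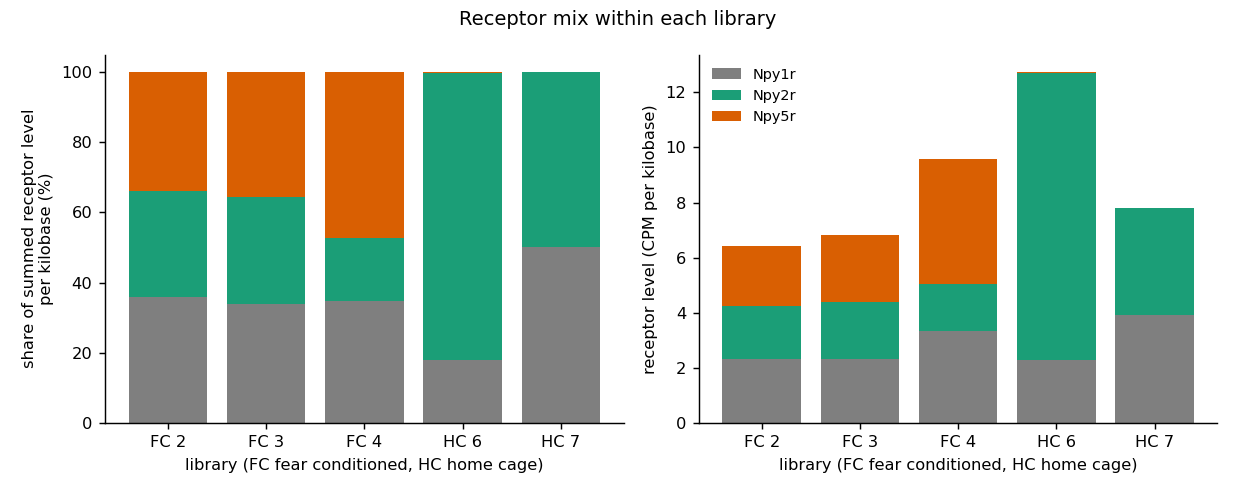
Left, share (%) of each receptor in the summed level per kilobase of Npy1r, Npy2r and Npy5r in each library. Right, the same levels in CPM per kilobase, stacked from 0. Npy5r holds between 33.9% and 47.3% of the bar in fear conditioned (FC) libraries and no more than 0.113% in home cage (HC) libraries, where Npy2r holds 81.9% and 49.8%.

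Npy RNA went along with somatostatin RNA in each library. Sst, a peptide made by many of the neurons that make Npy, and Nos1, the neuronal nitric oxide synthase found in a subset of them, lead the list of interneuron genes that share cells with Npy. Sst had 133, 65.5 and 72.0 CPM after fear conditioning, against 146 and 280 CPM in controls. Npy had 40.2, 43.5 and 43.1 reads per 100 reads of Sst after fear conditioning, against 34.0 and 42.7 in controls, a narrow range while the level of Npy itself varied from 28.5 to 119 CPM. Pearson's r of Npy with Sst on the log2(CPM + 1) scale was 0.984 over the 5 libraries, a description of points that share their library and its depth. Of all tested genes, 5.47% had an r above 0.9 with Npy.

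Npy2r was set beside Nos1, a pair chosen after the values were seen. Nos1 had 20.6, 21.1 and 21.0 CPM after fear conditioning, against 110 and 27.9 CPM in controls. Npy2r had 41.7, 43.6 and 36.3 reads per 100 reads of Nos1 after fear conditioning, against 42.1 and 61.7 in controls, with an r of 0.967 over the 5 libraries, where 3.36% of all tested genes had an r above 0.9 with Npy2r. Both genes were highest in control replicate 6, and among the fear conditioned libraries Nos1 was nearly constant. The crossed pairs were less even. Npy had between 45.0 and 427 reads per 100 reads of Nos1, and Npy2r between 6.17 and 31.8 reads per 100 reads of Sst.

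The interneuron list was mixed. Its 10 genes, Sst by far the most abundant, summed to between 181 and 243 CPM after fear conditioning and to 401 and 444 CPM in controls. Of the 10, 4 (Sst, Nos1, Cort and Satb1) were lower in every fear conditioned library than in both controls, where 16.1% of all tested genes were so, and none was higher in every one. The log2 difference was above 0 for 5 others, with Reln at 0.92, Lhx6 at 0.89, A930038C07Rik (Ndnf) at 0.54, Chodl at 0.22 and Tacr1 at 0.14, and the groups overlapped for each of them. Chodl and A930038C07Rik were at 0 in control replicate 7, and Lhx6 was at 47.4 and 0.527 CPM in control replicates 6 and 7. In mean CPM Lhx6 and Chodl were higher in controls, at 24.0 and 4.02, than after fear conditioning, at 14.9 and 2.58. The list's median log2 fold change was -0.43, beside 0.08 for all genes tested, and 0 of its genes passed. The part of interneuron RNA in the levels of Npy and Npy2r was not tested.

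**Figure D3:**
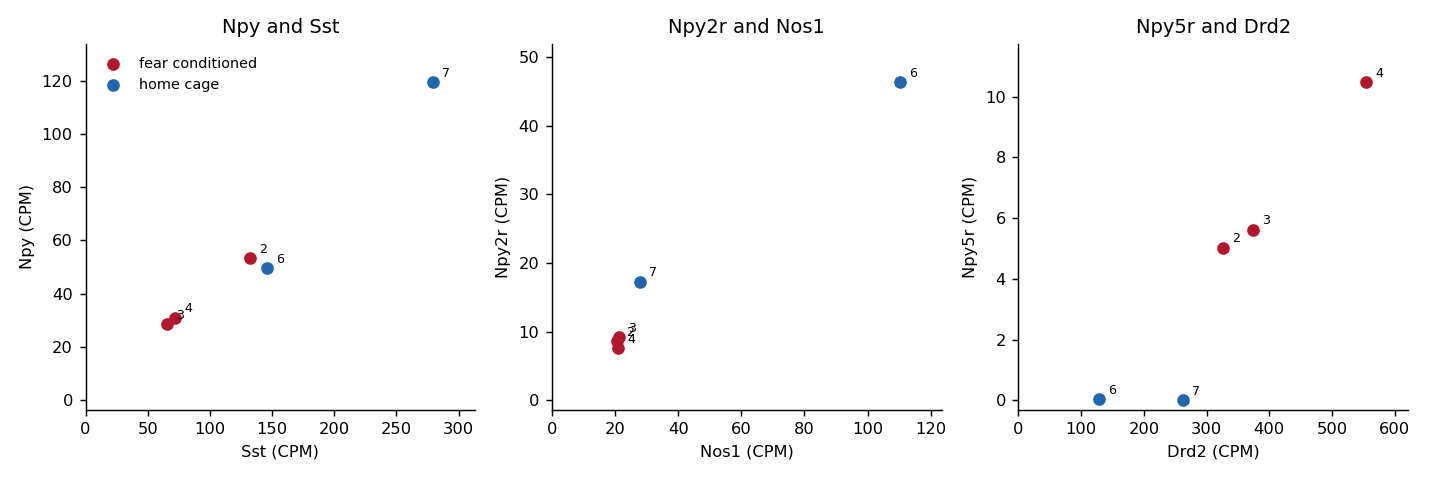
Levels in CPM of Npy against Sst, Npy2r against Nos1 and Npy5r against Drd2, with 1 point per library labelled by its replicate number. Npy is higher where Sst is higher, Npy2r and Nos1 are both highest in home cage replicate 6, and the home cage libraries hold 128 and 262 CPM of Drd2 and almost no Npy5r.

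The members were compared with each other over the libraries. Over the 5 libraries Pearson's r on the log2(CPM + 1) scale was -0.17 for the neighbours Npy1r and Npy5r, -0.14 for Npy1r and Npy2r, -0.87 for Npy2r and Npy5r, -0.76 for Npy and Npy5r, 0.38 for Npy and Npy2r and 0.53 for Npy and Npy1r. These values describe 5 points in 2 groups and carry no test. Those with Npy5r follow in part from its choice by the group difference. The genes most like a member were taken as the 5 with the highest r among the 13559 other genes tested. For Npy5r these were Gpr34, Thada, Zfp184, Zfp146 and Pdia4, with r from 0.998 to 0.999, and 40 genes were above 0.99. An r above 0.9 with Npy5r was found for 5.86% of all tested genes. Gpr34, a lysophospholipid receptor known from microglia, had 3.98, 3.96 and 7.15 CPM after fear conditioning and 0 in both controls, while the microglia list summed to between 64.9 and 111 CPM and to 101 and 127 CPM. Pdia4, a protein disulfide isomerase of the endoplasmic reticulum, had 58.4, 56.3 and 72.1 CPM after fear conditioning and no more than 28.2 CPM in controls. The nearest genes of Npy2r were Klhdc8b, Zfp956, F5, Nsmaf and Azi1 (r from 0.997 to 0.999), each highest in control replicate 6. Those of Npy included Eif3d, Vwa1, Gm3244 and Cox6a2 (r from 0.996 to 0.999), each highest in control replicate 7. Those of Npy1r were Syngr1, Gm9625, Gatad2a, B4galt5 and Bcl9l (r from 0.989 to 0.996).

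Genes that make, break down and relay the Npy signal were examined from a list of 29, of which 27 were matched to the table and 26 were tested. None passed the test, and 2, both lower after fear conditioning, had an unadjusted p under 0.05, which is 7.69% beside 16.8% of all genes. Their median log2 fold change was -0.17, beside 0.08 over all genes tested. All fear conditioned libraries lay below both controls for 6 of them, above both for 2, and the groups overlapped for 18, where 16.1% of all genes tested lay below, 20.2% above and 36.4% did not overlap. The other ligands and receptors of the family were not analysed here.

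The genes of propeptide processing and secretory granules had a median log2 difference of 0.17 over 10 genes, from -0.38 to 1.03. Chgb (chromogranin B) had 256, 184 and 208 CPM after fear conditioning, against 152 and 146 CPM in controls, which is 0.52 on the log2 scale with a standard error of 0.23 (limma, Benjamini-Hochberg adjusted p = 0.319). Scg5, the chaperone of the convertase Pcsk2, was the other gene above both controls in each library, at 497, 371 and 435 CPM against 346 and 307 CPM. Pcsk1, a convertase that cuts propeptides, was at 5.22, 5.21 and 4.82 CPM after fear conditioning but at 7.91 and 0 CPM in control replicates 6 and 7. The controls thus lay on both sides of the fear conditioned libraries. Mme (neprilysin), a peptidase that can cleave Npy, had 9.58, 18.4 and 27.8 CPM after fear conditioning, against 10.8 and 0.158 CPM in controls, a log2 difference of 2.29 with a standard error of 1.06, and control replicate 6 lay within the range of the fear conditioned libraries.

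The median log2 difference was below 0 in each list of signalling genes, at -0.33 for the inhibitory G alpha subunits, -0.60 for the potassium channels (the value of Kcnj6, which was at 6.08 and 0 CPM in the controls) and -0.66 for the receptor kinases and arrestins. Of the 5 inhibitory G alpha subunits, Gnai1, Gnai2 and Gnai3 were below both controls in each fear conditioned library, as were 16.1% of all genes tested, and none of the signalling genes passed the test. Gnai1 had 129, 133 and 109 CPM after fear conditioning, against 296 and 195 CPM in controls, which is -0.95 on the log2 scale with a standard error of 0.26 (limma, unadjusted p = 0.00981, adjusted p = 0.208). For Gnao1, the most abundant of them, the log2 difference was 0.01 with a standard error of 0.38. Of the potassium channel subunits that these G proteins open, Kcnj3 was below both controls in each library (23.2, 23.2 and 14.9 CPM against 46.3 and 27.9 CPM), Kcnj9 overlapped, and Kcnj5 had a mean under 1 CPM. Of the 7 receptor kinases and arrestins, which end receptor signalling, Adrbk1 (GRK2) had 84.0, 74.0 and 72.5 CPM after fear conditioning, against 106 and 139 CPM in controls, which is -0.66 on the log2 scale with a standard error of 0.24 (limma, unadjusted p = 0.0326, adjusted p = 0.259). Arrb2 was also below both controls in each library. The summed level of these 7 genes was between 315 and 344 CPM after fear conditioning and 463 CPM in each control.

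**Figure D4:**
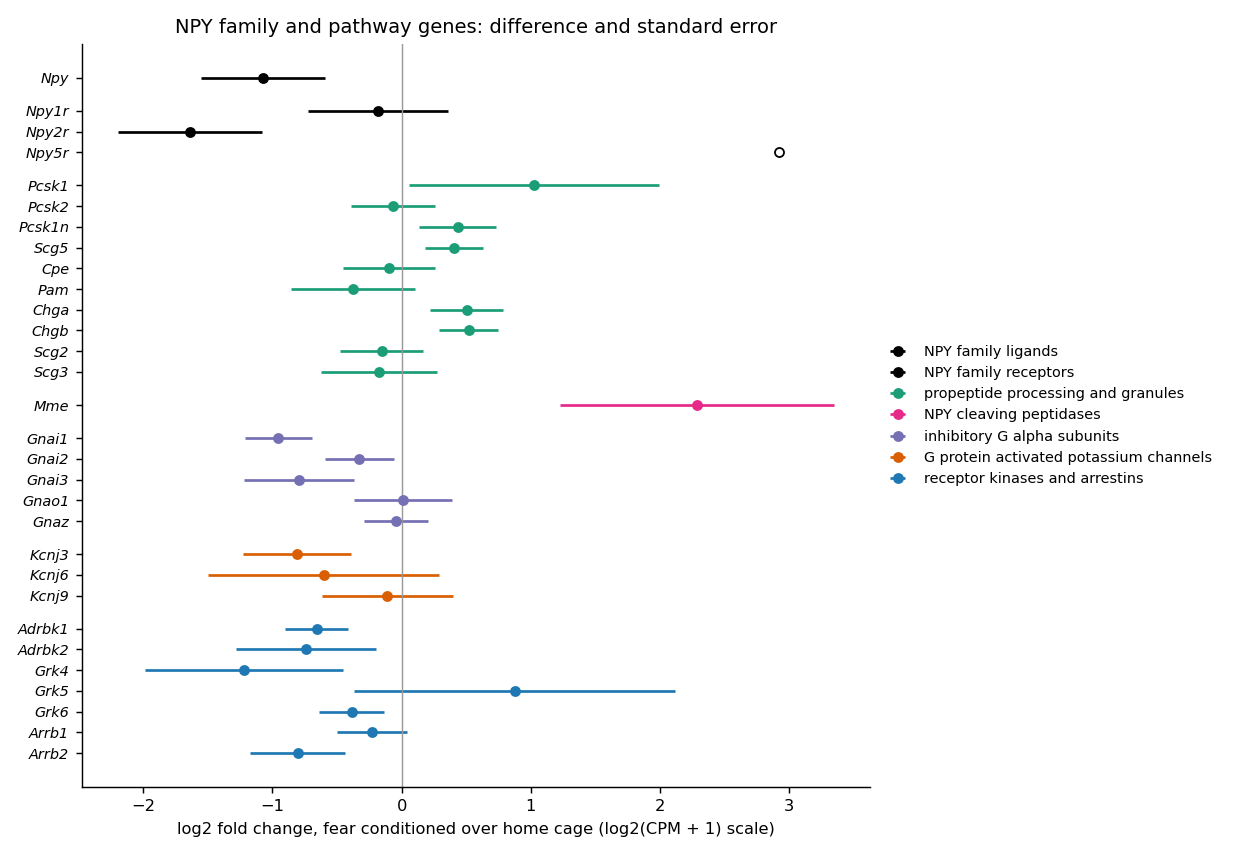
Log2 fold change (horizontal axis, fear conditioned over home cage, log2(CPM + 1) scale) of the Npy family and the pathway genes with a mean of at least 1 CPM, with bars for the standard error of the limma fit. The open point for Npy5r, at 2.92, has no bar because the gene was chosen by this contrast, and none of the genes passed the adjusted test.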

How the data were processed

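Ribosome-bound RNA was sequenced from 3 fear conditioned and 2 home cage pools. The authors used Tuxedo DESeq software per the methods, and the submitters' processing notes name DESeq and the build mm8; the aligner and its version are not given in the sources used here. The deposited values are a normalized signal per gene, in counts scaled to 1000000 (CPM) by the authors' estimate of library size. The smallest value above 0 in a library was taken as 1 read. Dividing by it gave whole numbers for 100% of values (tolerance 0.01), which served as recovered reads. Lengths below 0 (9 genes) were left out only of the percentages of listed genes below a member's level per kilobase. Strand use in counting is not given in the sources used here, and no RefSeq gene overlaps the 4 members.

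Groups were compared with limma 3.58.1 (lmFit, then eBayes, trend on) on log2(value + 1). Genes needed a mean of at least 1. Tests were two-sided, with Benjamini-Hochberg adjustment and the cutoffs of the methods (adjusted p of 0.05, log2 fold change of 0.5). The fit was first run on simulated counts with the same spread in all libraries. That run does not show how the fit does with controls as variable as these. Alternatives used edgeR 4.0.16 and DESeq2 1.42.0 on the recovered reads. R 4.3.3 and Python 3.11.15 were used. The genes named are the 4 members, the genes of the pathway and marker lists, and the 5 nearest in pattern to each member, of which 1 is not reported here. The members, lists and tests were chosen with earlier results of these data known. P-values set the group difference against the spread between pools, which the main limma fit takes as equal in both groups.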

Additional observations from a re-analysis of the deposited data

How the results depend on the processing

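No gene was called in limma, nor under a pseudocount of 0.1, no filter, a filter at 1 CPM for each library (which removed Npy5r), quantile, upper quartile or TMM scaling, library quality weights, an adjusted p of 0.1, no fold change cutoff, edgeR's quasi-likelihood test (2404 genes at an unadjusted p under 0.05) or limma voom (2543). DESeq2 called 1296 of 14489 genes, among them Npy2r (-1.92). With 1 library left out, the number of genes called ranged from 0 to 7956; it was 7956 without control replicate 6 and 3361 without control replicate 7, where the lone control is assumed to vary like the fear conditioned libraries although the controls were more variable. In these fits Npy was called without control replicate 6 (adjusted p = 0.00665, limma) and Npy2r without either control (adjusted p = 0.0264 and 0.00552). Over the libraries left out, log2 fold changes ranged from -1.70 to -0.45 for Npy, from -0.53 to 0.17 for Npy1r, from -2.33 to -0.95 for Npy2r and from 2.64 to 3.10 for Npy5r.

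Npy1r turned to 0.0668 with upper quartile scaling, which moved the median of all genes from 0.08 to 0.32, and to 0.17 without control replicate 7. Npy and Npy2r kept a negative sign in every alternative. Npy5r was 5.87 with a pseudocount of 0.1, 2.24 after quantile normalization, 8.19 with edgeR, 8.41 with DESeq2 and 7.50 with voom, sizes that depend on how a count near 0 is treated. Without division by length, the log2 ratio was 2.44 for Npy over Npy5r, -0.24 for Npy5r over Npy1r, -0.10 for Npy1r over Npy2r and -0.34 for Npy5r over Npy2r after fear conditioning, and 1.44 for Npy over Npy2r in controls. With a library left out, these ratios per kilobase ranged from 3.99 to 4.91, from -0.00665 to 0.26 (-0.00665 without fear conditioned replicate 4), from 0.21 to 0.61, from 0.20 to 0.82 and from 3.08 to 5.77, and that of Npy2r over Npy1r in controls from -0.0124 (without control replicate 6) to 2.19. A coding length was not run. No paired analysis was possible because the groups share no replicate number. Having only 2 controls, which differed widely, limits each comparison.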
